A study of Homo sapiens with 9 samples.

Results

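The regions described here are stretches of the genome where JUND, and none of 5 ETS proteins, had a peak in human prostate cells. They come from a chromatin immunoprecipitation and sequencing (ChIP-seq) study of 2 established cell lines. PC3 cells, derived from a metastasis of prostate cancer and given no retrovirus, were used for ETV4 and JUND, each precipitated with an antibody to the protein itself. RWPE-1 cells, which are immortalised prostate epithelial cells that do not form tumours, were used for endogenous ETS1 and GABPA, likewise without retrovirus, and for FLAG-ERG and FLAG-ETV1, each introduced by retrovirus and precipitated through its FLAG tag. Each protein has 1 library and 1 peak list. JUND was not mapped in RWPE-1, so absence of an RWPE-1 peak compares different lines as well as different proteins.

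The members were chosen by the peak positions alone: the 6 lists were pooled, peaks sharing at least 1 bp were joined into regions, and regions with a JUND peak and no peak of the other 5 lists were kept. This gave 2017 regions of 24166 in all, and each held a single JUND peak. They were 67.8% of the JUND regions (Wilson 95% interval 66.1 to 69.5%), of which 956 others shared a peak with another list. For reference, 89.3% of all regions were held by 1 list only. Both shares follow from the rule, so neither is a finding. These 956 comprised 723 with an ETV4 peak (24.3%) and 233 with an RWPE-1 list but no ETV4 (7.84%). The lists hold no peak heights and their thresholds are not stated, so a JUND-only region is not shown to lack ETS proteins.

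JUND is a subunit of AP-1, a family of dimers of JUN, FOS and related proteins that bind DNA through a basic leucine zipper and recognise the motif TGANTCA. ETS proteins share a winged-helix DNA-binding domain and recognise a core of GGAA. The motifs lie next to each other in many enhancers, where both kinds of protein can be bound, and Ras/MAPK signalling acts on both. Rearranged ERG, ETV1 and ETV4 genes act as oncogenes in prostate cancer, while GABPA is present in nearly all cell types. No sequence of the files' genome build, hg18, was used here, so motifs and genes are not given and regions are named by position.

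The rule turns on 1 bp, and few regions lay close to that limit. The members nearest to another list were chromosome 20, 25425753 to 25426236, which touched an ETV4 peak with a gap of 0 bp, chromosome 19, 11110041 to 11110532, with a gap of 3 bp to ETV4, and chromosome 20, 49506523 to 49507006, with a gap of 4 bp to ETV4. Only 17 members (0.843%) had a gap of up to 100 bp to any other list. Just outside the rule lay chromosome 14, 76694111 to 76694610, which shared 1 bp with FLAG-ETV1, chromosome 7, 2869739 to 2870198, which shared 8 bp with ETS1, and chromosome 1, 43179850 to 43180348, which shared 14 bp with FLAG-ETV1. Of the 956 JUND regions with another list, 28 (2.93%) shared at most 100 bp with it.

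JUND-only regions were unevenly spread along the rows of the JUND file, whose order the labels do not describe. They made up 39.9% of the first 10% of rows (34.5 to 45.6%) and 83.5% of the last 10% (78.9 to 87.3%). The share was higher in each successive 10% of the rows. Regions with ETV4 took the opposite course, from 51.0% in the first 10% of rows (45.3 to 56.6%) to 11.8% in the last (8.60 to 16.0%). Regions with an RWPE-1 list but no ETV4 moved less, from 9.06% (6.30 to 12.9%) to 4.71% (2.83 to 7.76%). The median member lay 56.7% of the way through the file, against 32.8% for a JUND region with ETV4. The same kind of course was seen in the ETV4 file, where ETV4-only regions were 49.3% of the first 20% of rows (45.4 to 53.2%) and 79.3% of the last 20% (76.0 to 82.3%). The files have no column of peak strength, so what the row order stands for cannot be read from them, and its part in the JUND-only share was not tested.

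**Figure D1:**
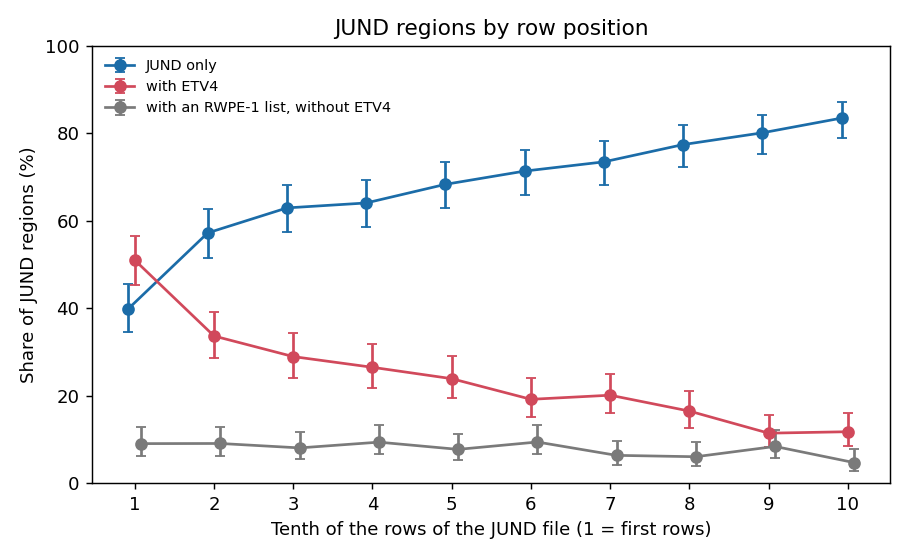
Share of JUND regions (y axis, %) in each of 10 successive parts of the JUND file (x axis), for regions with JUND only, with ETV4, and with an RWPE-1 list but no ETV4. Points are shares and bars are Wilson 95% intervals; the JUND-only share goes from 39.9% to 83.5% and the share with ETV4 from 51.0% to 11.8%.

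Members were slightly narrower than the other JUND peaks. Their widths ran from 195 to 501 bp with a median of 485 bp, against a median of 491 bp for JUND peaks with any other list, and 6.84% of members (5.82 to 8.03%) but 3.45% of the others (2.47 to 4.81%) were under 400 bp. A wider peak meets others more easily, so width is tied to the rule. The course along the rows was also seen among peaks of like width. Among JUND peaks of 480 bp or wider, 44.4% of those in the first 20% of rows were JUND-only (39.8 to 49.1%) and 83.6% of those in the last 20% (79.2 to 87.2%). Among those from 400 to under 480 bp the shares were 59.9% (51.6 to 67.6%) and 78.1% (72.2 to 83.1%).

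JUND-only regions lay farther from other ETV4 peaks than JUND regions that held ETV4. The nearest ETV4 peak was a median of 187.1 kb away (quartiles 48.9 and 539.2 kb). For JUND regions with ETV4, counting only ETV4 peaks outside the region, the median was 54.1 kb (10.7 and 276.9 kb). An ETV4 peak lay within 100 kb of 36.7% of members (34.7 to 38.9%) and of 59.6% of the regions with ETV4 (56.0 to 63.1%), a difference of -22.9 percentage points (Newcombe 95% interval -27.0 to -18.7). The gap was seen in all 5 parts of 20% of the file. In the first it was 41.5% against 64.3% (difference -22.8 points, -30.7 to -14.4) and in the last 36.2% against 55.1% (-18.9 points, -30.8 to -6.38). The ETV4 list also chose these groups, so the difference is a description of where ETV4 peaks gather. JUND regions with an RWPE-1 list but no ETV4, which the ETV4 rule does not separate from the members, had an ETV4 peak within 100 kb in 38.2% (32.2 to 44.6%), within counting error of the members (difference -1.46 points, -8.17 to 4.91).

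The spacing of JUND peaks among themselves did not enter the rule. A further JUND peak lay within 100 kb of 42.3% of members (40.2 to 44.5%) and of 55.3% of the JUND regions with ETV4 (51.7 to 58.9%), a difference of -13.0 points (-17.2 to -8.80). At 1 Mb the shares were 89.0% and 91.1%, and the interval of the difference (-4.46 to 0.527 points) included 0. JUND regions with an RWPE-1 list but no ETV4 stood between the groups at 100 kb, at 47.2% (40.9 to 53.6%), and their difference from the members (-4.92 points, -11.7 to 1.75) was within counting error. The median distance to the next JUND peak was 143.4 kb for members and 73.5 kb for regions with ETV4. Within parts of 20% of the file, the differences were -6.99, -10.1, -5.25, -13.3 and -16.8 points from the first part to the last, and the intervals of the first (-15.1 to 1.32) and the third (-15.0 to 4.34) included 0. Where a member had a JUND neighbour within 100 kb, that neighbour was itself JUND-only in 552 of 853 cases (64.7%, 61.5 to 67.9%). For JUND regions with ETV4 it was JUND-only in 212 of 400 (53.0%, 48.1 to 57.8%) and held ETV4 in 163 (40.8%, 36.0 to 45.6%). Of all JUND regions, 67.8% are JUND-only and 24.3% hold ETV4. Those shares are not the fitting background, since a neighbour within 100 kb must itself have a JUND peak that near. The regions with such a peak were 853 JUND-only, 400 with ETV4 and 110 with an RWPE-1 list but no ETV4. Neighbouring peaks are not independent units, and peaks of 1 library are not replicates, so these intervals cover counting error only and no p is given.

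**Figure D2:**
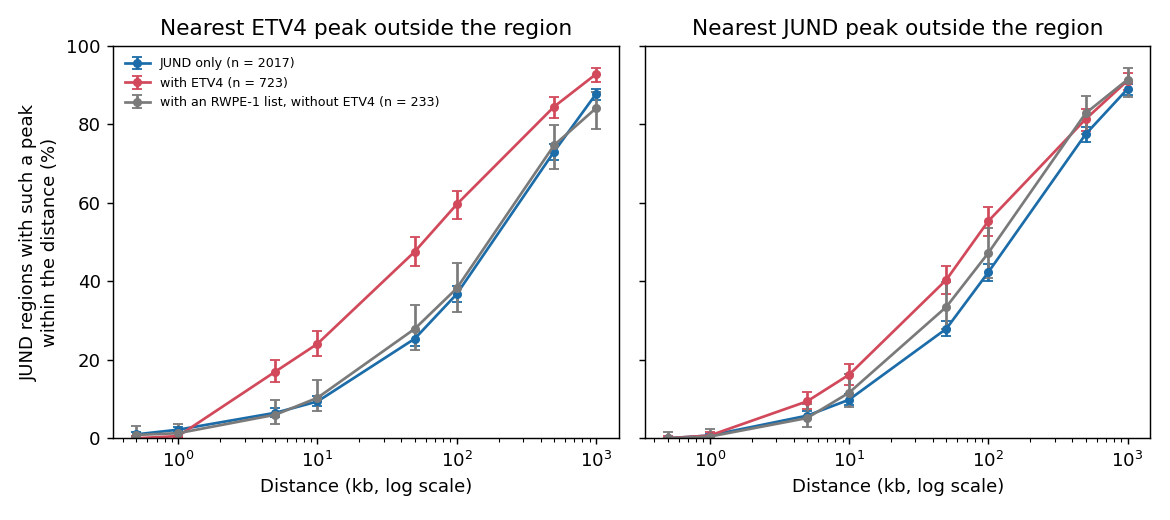
Share of JUND regions (y axis, %) that have an ETV4 peak (left) or a further JUND peak (right) outside the region within the distance on the log-scaled x axis (kb). Points are shares and bars Wilson 95% intervals; at 100 kb members stand at 36.7% for ETV4 and 42.3% for JUND, below the 59.6% and 55.3% of JUND regions with ETV4.

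Around members and JUND regions with ETV4, the shares with a nearby RWPE-1 peak were closer than those with a nearby PC3 peak, a contrast that was not tested. A GABPA peak lay within 100 kb of 47.6% of members and 49.2% of regions with ETV4 (difference -1.59 points, -5.83 to 2.64). For ETS1 the shares were 22.0% and 21.7% (0.298 points, -3.31 to 3.70). For the proteins expressed from retrovirus the members stood lower, but the rule bears on this. It barred peaks of the RWPE-1 lists from members, while regions with ETV4 could hold them. Of the latter, 47 held FLAG-ERG and 55 FLAG-ETV1 as the only further list, against 7 with GABPA and 5 with ETS1. The differences are thus descriptions only. FLAG-ERG was within 100 kb of 23.3% of members and 28.9% of regions with ETV4 (-5.66 points, -9.51 to -1.95). FLAG-ETV1 was within 100 kb of 53.9% and 58.9% (-5.03 points, -9.18 to -0.807). The JUND regions with an RWPE-1 list but no ETV4, which those lists chose, stood well above the members: GABPA lay within 100 kb and outside the region in 73.4%, FLAG-ETV1 in 74.2%, FLAG-ERG in 44.2% and ETS1 in 43.3%. Their differences from the members ran from -25.7 points for GABPA (-31.4 to -19.3) to -20.4 points for FLAG-ETV1 (-26.0 to -14.0).

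**Figure D3:**
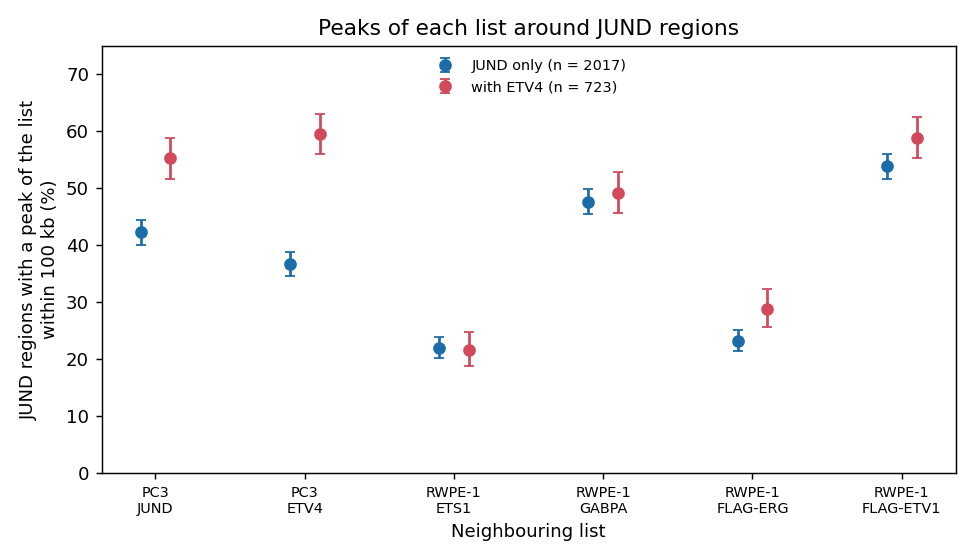
Share of JUND regions (y axis, %) with a peak of each list (x axis) within 100 kb and outside the region, for members and for JUND regions with ETV4, with Wilson 95% intervals. The intervals of the groups are apart for the JUND and ETV4 lists of PC3 and, narrowly, for FLAG-ERG. They overlap for ETS1, GABPA and FLAG-ETV1, though members stand lower for FLAG-ETV1.

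Most members had some peak of another list within 100 kb, though fewer did than in the other JUND groups. The lists counted here also chose these groups, so that contrast is a description and not a finding. The nearest peak of any of the other 5 lists was a median of 28.3 kb away (quartiles 8.44 and 76.97 kb). Within 100 kb, 28.5% of members had both ETV4 and an RWPE-1 list, 8.28% had ETV4 without an RWPE-1 list, 44.5% had an RWPE-1 list without ETV4, and 18.8% (17.1 to 20.6%) had neither. Neither was found outside the region for 12.0% of JUND regions with ETV4 (9.86 to 14.6%) and 7.30% of those with an RWPE-1 list but no ETV4 (4.61 to 11.4%). ETV4 was the nearest of the 5 lists for 519 members (25.7%, 23.9 to 27.7%), although it supplied 12.9% of their peaks. GABPA was nearest for 27.1% (25.2 to 29.0%) and supplied 33.0%, FLAG-ETV1 for 32.3% (30.3 to 34.4%) and 35.7%, and FLAG-ERG for 7.24% (6.19 to 8.45%) and 9.47%. ETS1 was nearest for 7.69%, with an interval (6.60 to 8.93%) that included its 8.92% of the peaks. These shares sum to a whole, so they are lower for other lists where that of ETV4 is higher. In the reverse direction, a JUND peak lay within 100 kb of 39.9% of the ETV4-only regions (37.9 to 42.0%), at a median distance of 166.6 kb. The members' share of 36.7% with a nearby ETV4 peak was lower by a small margin (-3.21 points, -6.14 to -0.265).

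Only 9 members lay more than 1 Mb from every peak of the other lists. The 3 farthest were chromosome X, 4758854 to 4759254, with 3164 kb to a GABPA peak, chromosome 2, 77241706 to 77242078, with 1349 kb to a FLAG-ETV1 peak, and chromosome 3, 81892537 to 81893036, with 1300.2 kb to a GABPA peak. These sites were also far from other JUND peaks, at 4037, 2420.1 and 2557 kb. The members farthest from any other JUND peak were chromosome 9, 88153229 to 88153708 (6740 kb; width 480 bp), chromosome 13, 72893507 to 72894003 (6567 kb), and chromosome 12, 13231631 to 13232126 (6326 kb). Their nearest peaks of other lists were not all far: FLAG-ETV1 at 5.03 kb for the first and ETS1 at 7.78 kb for the third. Both of those peaks are from RWPE-1, where JUND was not mapped. The second had its nearest peak, of ETV4, at 85.6 kb, beyond the upper quartile of all members (76.97 kb).

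At short range some JUND-only regions formed pairs, and no longer runs were found. Within 10 kb of each other and with no peak of another list between them, 120 members (5.95%) formed 60 pairs, and no run of 3 or more occurred. The same count was not made for other JUND regions. A further JUND peak of any kind lay within 10 kb of 9.82% of members. It did so for 16.2% of JUND regions with ETV4 and 11.6% of those with an RWPE-1 list but no ETV4. Close spacing was thus not particular to members. By position the first pairs were on chromosome 1, at 1680069 to 1684841, 84485671 to 84492407 and 149786287 to 149788353. At the scale of 1 Mb, the members fell into 1151 windows, of which 661 held 1 member and 37 held 5 or more. The densest window, 126000001 to 127000000 of chromosome 8, had 11 members among its 17 JUND peaks, with 9 ETV4 peaks. Next came 34000001 to 35000000 of chromosome 10, with 9 members among 10 JUND peaks and 2 ETV4 peaks, and the adjoining 35000001 to 36000000, with 9 members among 11 JUND peaks and 10 ETV4 peaks. Among these 3 windows, which were ranked by their members, the number of ETV4 peaks ran from 2 to 10. No ETV4 peak fell in 394 of the windows with a member, which held 566 members (28.1%), a share not taken for the other JUND groups. Of these windows, 207000001 to 208000000 of chromosome 1 and 46000001 to 47000000 of chromosome 7 had 6 members each. All JUND peaks of both windows were JUND-only. That follows largely from how they were picked: without an ETV4 peak, a JUND region could be shared only with an RWPE-1 list.

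By chromosome, the JUND-only share of JUND regions ran from 58.6 to 83.8%, and on 18 of 23 chromosomes the Wilson interval included the overall 67.8%. It was highest on chromosome 4, with 57 of 68 regions (83.8%, 73.3 to 90.7%), chromosome 9, with 50 of 61 (82.0%, 70.5 to 89.6%), and chromosome 18, with 49 of 64 (76.6%, 64.9 to 85.2%). It was lowest on chromosome 17, with 82 of 140 (58.6%, 50.3 to 66.4%), chromosome 10, with 123 of 201 (61.2%, 54.3 to 67.7%), and chromosome 20, with 78 of 125 (62.4%, 53.7 to 70.4%). These are the extremes of 23 chromosomes and were ranked by the share itself. At these extremes row position differed too: JUND peaks lay on average 58.6%, 55.6% and 56.2% of the way through the file on chromosomes 4, 9 and 18, and 47.2%, 40.1% and 43.3% on chromosomes 17, 10 and 20. Among the other chromosomes, some followed this and some did not. JUND peaks lay at 55.6% on average on chromosome 6, with a JUND-only share of 75.6%, and at 46.1% on chromosome 11, with a share of 65.4%. They lay latest, at 62.1%, on chromosome 22, with a share of 71.8%. By contrast, they lay at 57.5% on chromosome 15, with a share of 64.2%, and at 49.0% on chromosome 7, with a share of 75.4%. The part of row position in the chromosome shares was not tested.

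**Figure D4:**
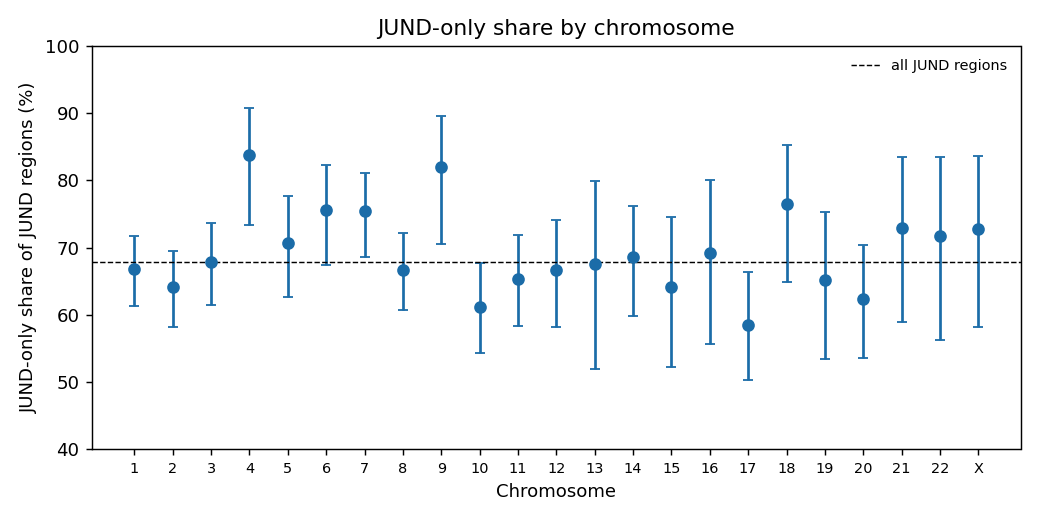
JUND-only share of the JUND regions (y axis, %, drawn from 40%) on each chromosome (x axis), with Wilson 95% intervals and the share over all JUND regions as a dashed line. Chromosomes 4 and 9 stand highest and chromosome 17 lowest; most intervals include the overall 67.8%.

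The surroundings of members also varied between chromosomes. ETV4 lay within 100 kb of 54.5% of the 123 members on chromosome 10 (45.7 to 63.0%) and of 52.3% of the 174 on chromosome 8 (44.9 to 59.6%). It did so for 19.3% of the 57 on chromosome 4 (11.1 to 31.3%) and 18.8% of the 32 on chromosome X (8.89 to 35.3%). A further JUND peak lay within 100 kb of 63.8% of members on chromosome 8 (56.4 to 70.6%) and of 14.0% on chromosome 4 (7.29 to 25.3%). The highest share was on chromosome 21, 71.4% of 35 members (55.0 to 83.7%). The lists also differ in size there. ETV4 had 250 peaks on chromosome 10, 256 on chromosome 8, 111 on chromosome 4 and 58 on chromosome X. JUND had 261 on chromosome 8, 68 on chromosome 4 and 48 on chromosome 21. The part of these numbers in the shares was not tested. Chromosome 1 held the most members, 211 (10.5%, 9.20 to 11.9%). Chromosome 2 held 175 (8.68%) and chromosome 8 held 174 (8.63%, 7.48 to 9.93%). The JUND regions with another list were spread much alike, with 10.98%, 10.25% and 9.1% of them on chromosomes 1, 2 and 8. Chromosome 8 had 12.8% of the members in the first 20% of rows (9.43 to 17.1%) and 8.44% of those in the last 20% (6.28 to 11.2%). Chromosome 10 had 9.34% (6.50 to 13.3%) and 4.73% (3.17 to 7.001%). Chromosome 1 went the other way, with 10.4% (7.37 to 14.4%) and 13.0% (10.3 to 16.2%). JUND peaks of all kinds lay on average 46.1%, 40.1% and 51.4% of the way through the file on chromosomes 8, 10 and 1. These courses are thus not shown to be particular to members.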

How the data were processed

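ChIP-seq was performed on PC3 and RWPE-1 cells with 1 library per protein. Libraries were made with a kit from Illumina, per the labels' protocols. The authors deposited 6 peak lists on hg18, per the labels, each with 3 columns (chromosome, start, end) and no other values; the remaining 3 libraries (inputs and FLAG control) were not used here. No source used here gives the aligner, peak caller, control library or threshold, and depth is unknown. Starts were read as counted from 0 and are printed counted from 1. Groups came from the sample titles.

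Peaks of different lists sharing at least 1 bp were joined. Distances are the bases between a JUND peak and the nearest peak outside its own region. Shares carry Wilson and differences Newcombe 95% intervals, which cover counting error only; with 1 library per protein no test was made. Joining was tested on simulated data. The reference tables are on another build and supplied neither genes nor sequences. Members, distances and named-region rules (the 3 densest 1 Mb windows, first runs, farthest and nearest members, and 3 chromosomes at either end among those with at least 30 JUND peaks) were chosen with earlier results of these data known. Width classes, chromosome surroundings, nearest lists and windows without ETV4 were added after the lists were seen. Python 3.11.15, numpy 2.4.6, scipy 1.17.1, statsmodels 0.14.6 and matplotlib 3.10.9 were used.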

Additional observations from a re-analysis of the deposited data

How the results depend on the processing

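The share of JUND regions that were JUND-only (67.8%) became 71.5% with a reciprocal overlap of 50%, 65.9% when gaps of up to 500 bp counted as shared, 55.5% with gaps of up to 5000 bp, 75.7% with only the 2 PC3 lists, 86.4% without the ETV4 list and 71.1% without the FLAG-ETV1 list, each by construction of a stricter or looser rule. Members with ETV4 within 100 kb (36.7%) became 31.7% with gaps of up to 5000 bp, 34.6% without chromosomes 3 and 8, 9.37% at 10 kb and 87.8% at 1 Mb, and 50.3% without the ETV4 list, since ETV4 peaks that overlap then count as near. Members with a further JUND peak within 100 kb (42.3%) became 39.5%, 40.1%, 9.82% and 89.0% under the first 4 of these and 44.8% without the ETV4 list. Members in the first 50% of rows (43.1%) became 47.7% without the ETV4 list, and those on chromosome 1 (10.5%) became 12.5% without chromosomes 3 and 8. The other 46 values stayed within the interval of the value as reported, among them all medians of width, those on autosomes and those of peaks set to 400 bp. Reading starts as counted from 1, an alternative chosen after seeing the data, left 2016 members. At 100 kb, the difference from JUND regions with ETV4 stayed below 0 in all 9 other definitions of both groups, from -24.4 to -20.7 points for ETV4 and from -13.5 to -11.5 points for JUND. At 10 kb and 1 Mb it was -14.7 and -5.05 points for ETV4 and -6.37 and -2.11 points for JUND, and the last interval (-4.46 to 0.527) included 0. A stricter peak threshold could not be tried, since the lists hold no score. Unknown depth limits every statement of absence. No paired analysis was possible because each protein has 1 library.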
